A study of Mus musculus with 12 samples.

Results

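The metallothioneins Mt1 and Mt2 and 4 genes of cellular zinc handling were followed across 12 mouse liver libraries. The other 4 are the zinc exporter gene Slc30a1, the zinc importer genes Slc39a10 and Slc39a14, and Mtf1, which encodes the zinc-sensing transcription factor of the pathway. The members were taken by gene symbol in the GRCm38 annotation. All 6 symbols had values, out of 22381 genes with values, and all 6 were among the 12637 genes expressed highly enough to be tested. The genes were chosen by their differences between treated and untreated HFHS livers as well as by their role. Those differences, and others that share the libraries, are therefore descriptions, without p-values for the 6 genes.

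RNA was sequenced from whole livers of the inbred mouse strain C57BL/6, all animals being female. A group of 3 libraries (curcumin) came from mice on a diet rich in fat and sugar (HFHS) whose veins were injected with liposomes carrying curcumin, a plant polyphenol. A second group of 3 (calcitriol) had the same diet and liposomes carrying calcitriol, active vitamin D hormone. Another 3 libraries (HFHS) came from mice with the diet and no treatment, and the last 3 are titled CNT. The diet lasted 14 weeks, the injections fell in weeks 12 and 13, and livers were collected 2 weeks after the first injection. The sample labels of CNT carry the diet text of the other groups, so what distinguishes it is not given in the sources used here and it goes by that title. Livers given empty liposomes were not analysed here, so either compound cannot be told apart from its liposomes and injections. Whether replicates are separate animals is not stated, so errors and p-values measure the spread between these libraries, which may be technical.

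Each library was deposited as log2 values without counts, and depth is unknown. The transformation behind them is not named, and differences of weakly expressed genes may be understated. All 6 hepatocyte markers were present in every library, with a summed level of at least 20.11 (log2). On the first principal component the HFHS libraries were split: replicates 1 and 3 were at -32.8 and -28.4, and replicate 2 at 3.09, close to the other groups. The SD between libraries, taken as the square root of the mean variance over the tested genes, was 0.126 with curcumin, 0.148 with calcitriol, 0.233 in HFHS and 0.177 in CNT (log2). In whole tissue, fewer cells of a type and less RNA per cell cannot be told apart.

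Metallothioneins are small, cysteine-rich proteins that bind zinc and copper and buffer them in the cytosol. When free zinc rises, MTF1 binds short metal response elements (MREs) in promoters and activates Mt1, Mt2 and Slc30a1, whose product moves zinc out across the plasma membrane. Slc39a10 encodes an importer that MTF1 is known to repress, and Slc39a14 encodes an importer of zinc, iron and manganese that interleukin-6 induces in the liver. Hepatic metallothionein genes are also known to respond to interleukin-6, glucocorticoids and oxidative stress, so they are measured here beside genes of those responses.

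The promoters of the 3 genes that are textbook MTF1 targets are shown with their MRE letters, whose number in a window depends on the annotated start. The MRE core was searched as TGCACNC or TGCGCNC on both strands in RefSeq windows of 300 bases (build GRCm38.p6), from 250 bases before to 50 bases after each annotated start. The part before the annotated exons is printed 5′ to 3′, all on the plus strand, with MRE letters in capitals; capitals that read GTGTGCA or GAGTGCA are matches on the minus strand. The printed stretches are chr8:94172368-94172617 for Mt2, chr8:94178839-94179081 for Mt1 and chr1:191906531-191906766 for Slc30a1.
Mt2: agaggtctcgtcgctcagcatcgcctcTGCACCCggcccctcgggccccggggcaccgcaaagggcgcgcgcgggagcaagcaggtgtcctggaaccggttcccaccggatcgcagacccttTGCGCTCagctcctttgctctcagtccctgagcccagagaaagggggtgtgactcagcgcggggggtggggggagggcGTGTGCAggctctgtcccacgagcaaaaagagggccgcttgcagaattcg
Mt1: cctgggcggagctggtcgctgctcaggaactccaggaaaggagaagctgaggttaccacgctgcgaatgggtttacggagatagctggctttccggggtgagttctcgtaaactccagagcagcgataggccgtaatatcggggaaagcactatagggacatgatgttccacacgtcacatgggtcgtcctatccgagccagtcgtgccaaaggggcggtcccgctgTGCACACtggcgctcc
Slc30a1: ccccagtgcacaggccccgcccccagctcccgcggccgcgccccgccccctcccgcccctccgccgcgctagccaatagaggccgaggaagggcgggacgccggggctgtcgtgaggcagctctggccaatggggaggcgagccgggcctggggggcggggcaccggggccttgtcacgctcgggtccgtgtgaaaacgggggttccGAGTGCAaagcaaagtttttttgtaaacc

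The full Mt2 window held 4 MRE matches, 3 of them before the annotated start, and 0.295% of 32851 promoter windows held 4 or more. The Mt1 window held 3, with 1 before the start, and 1.31% of windows held 3 or more. The Slc30a1 window held 2, with 1 before the start, and 6.14% of windows held 2 or more. At least 1 match was present in 25.7% of all windows. The windows of Slc39a10, which had 2, and of Mtf1 held 0. Of the Slc39a10 windows, chr1:46925727-46926026 lies outside the GENCODE span of the gene. In the other, all 250 bases before the start are exonic in GENCODE, as are 244 of 250 in the Mtf1 window. These windows may therefore not be the promoters in use. The starts are annotated and were not measured. GENCODE and RefSeq do not place them alike: GENCODE begins Mt2 at 94172664, inside the RefSeq window. Of the other elements searched, the antioxidant core TGACNNNGC was present once each in the Mt2 and Slc30a1 windows (12.4% of all windows hold it). The STAT letters TTCNNNGAA were present once in the Slc39a10 window outside the GENCODE span (8.3%), and a glucocorticoid receptor palindrome once in the Mt1 window (0.475%). The DR3 vitamin D response element was found in none of these windows and in 0.0396% of all. A match to these letters is a description of the window and not evidence of binding.

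Both metallothionein genes stood higher in the livers of each treatment than in untreated HFHS livers, with no overlap between libraries. Mt1 (ENSMUSG00000031765, GRCm38 chr8:94179082-94180327, plus strand) stood at 12.68, 12.25 and 12.01 with curcumin, 12.16, 12.70 and 13.53 with calcitriol, 10.94, 10.66 and 10.65 in HFHS, and 11.18, 11.31 and 12.33 in CNT (log2 level, replicates 1 to 3). The 6 treated libraries all lay above the 3 HFHS libraries, and the CNT libraries lay above HFHS as well, with CNT replicate 3 inside the treated range. Mt2 (ENSMUSG00000031762, chr8:94172664-94173568, plus strand) stood at 12.14, 11.54 and 11.37 with curcumin, 11.75, 12.27 and 13.31 with calcitriol, 10.17, 9.57 and 9.64 in HFHS, and 9.82, 9.85 and 10.53 in CNT. For Mt2 the 6 treated libraries lay above all 6 others, and HFHS and CNT overlapped.

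**Figure D1:**
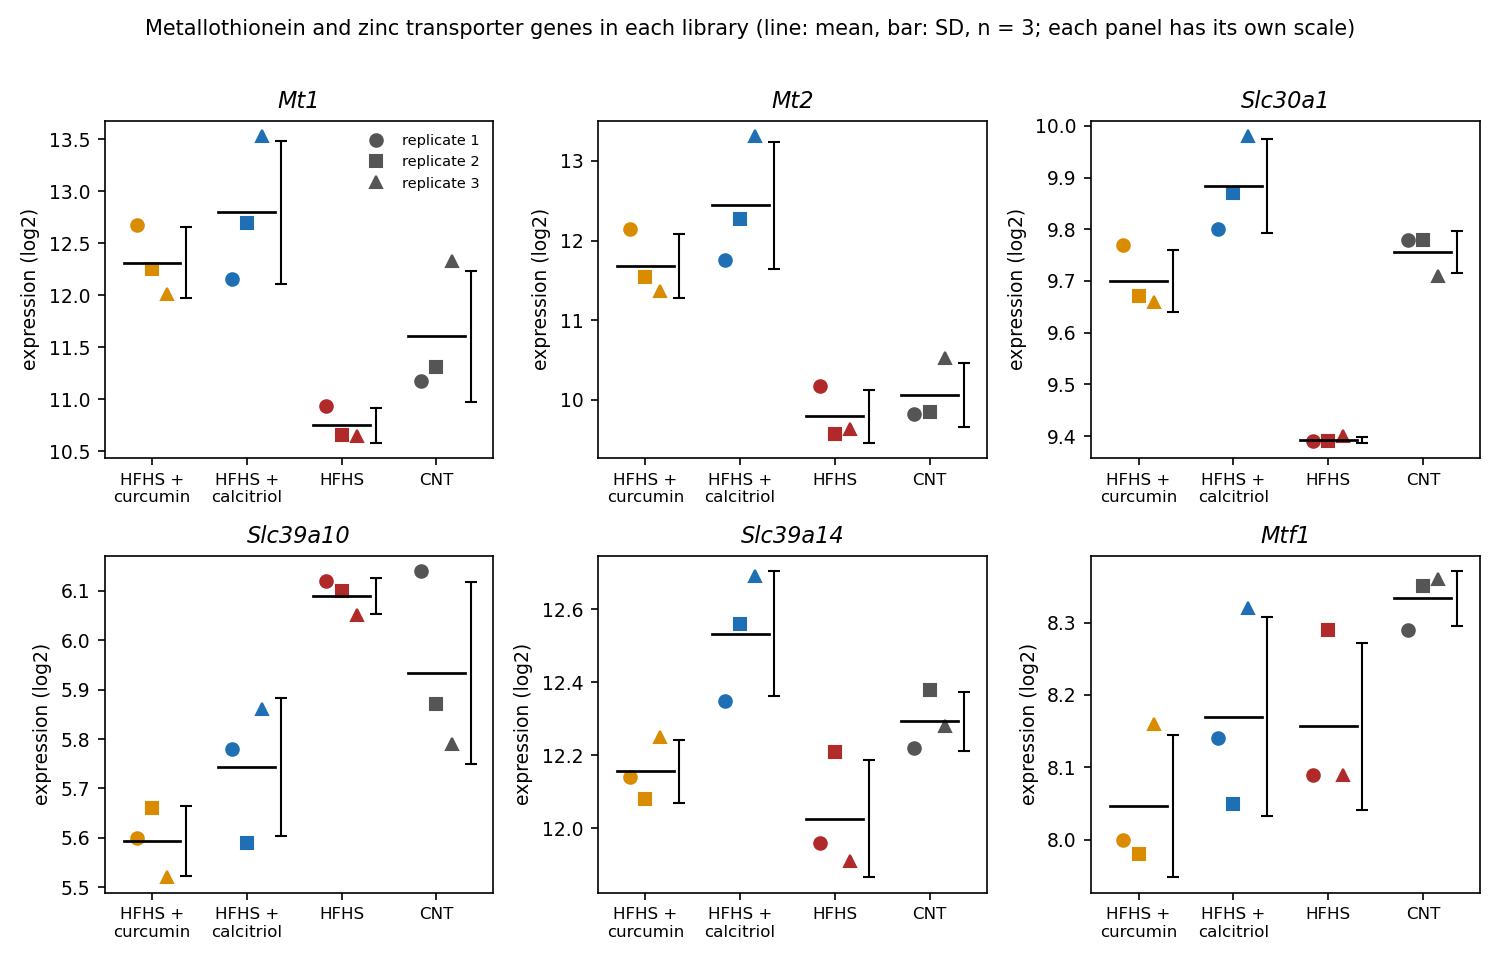
Log2 expression level of the 6 genes (y axis, its own scale in each panel) in the 4 groups (x axis), with symbols for replicates 1 to 3, a line for the mean and a bar for the SD (n = 3). Mt1 and Mt2 lie above every HFHS library in all 6 treated libraries, the 3 HFHS values of Slc30a1 lie between 9.39 and 9.40, below all others, and Slc39a10 is lower in the treated livers than in HFHS.

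Mt1 averaged 12.31 ± 0.34 with curcumin, 12.80 ± 0.69 with calcitriol, 10.75 ± 0.16 in HFHS and 11.61 ± 0.63 in CNT (SD, n = 3 each). Mt2 averaged 11.68 ± 0.41 with curcumin, 12.44 ± 0.80 with calcitriol, 9.80 ± 0.33 in HFHS and 10.06 ± 0.40 in CNT. Against HFHS, Mt1 was 1.56 ± 0.35 higher (log2 difference ± SE of the limma fit, a 2.95-fold difference) with curcumin and 2.05 ± 0.35 higher (4.13-fold) with calcitriol. Mt2 was 1.89 ± 0.37 higher (3.7-fold) with curcumin and 2.65 ± 0.37 higher (6.27-fold) with calcitriol. By the size of the difference among 12637 genes, Mt2 and Mt1 ranked 2 and 4 from the top with curcumin, and 3 and 5 with calcitriol. These comparisons share the HFHS libraries. Against HFHS replicate 2 alone, without HFHS replicates 1 and 3, the mean of Mt1 and Mt2 was 1.88 higher with curcumin and 2.50 higher with calcitriol, against 1.72 and 2.35 with all 3.

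Against CNT the differences were smaller than against HFHS. Mt2 was 1.62 ± 0.37 higher with curcumin and 2.38 ± 0.37 higher with calcitriol, without overlap. Mt1 was 0.70 ± 0.35 higher with curcumin and 1.19 ± 0.35 higher with calcitriol, and in both the groups overlapped through CNT replicate 3. Untreated HFHS livers stood below CNT livers in Mt1, with a difference of -0.86 ± 0.35 and no overlap, and the difference in Mt2 was -0.27 ± 0.37, with overlap. With CNT replicate 3 left out, the HFHS minus CNT difference was -0.50 for Mt1 and -0.04 for Mt2.

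Both genes were among the more abundant liver transcripts. With levels divided by exon length and ranked among 12605 genes, Mt2 ranked 119 with curcumin, 64 with calcitriol, 359 in HFHS and 357 in CNT. On the same per-length scale Mt1 ranked 169 with curcumin, 106 with calcitriol, 384 in HFHS and 257 in CNT. The exon length used for Mt1, 1246 bases, covers its whole annotated span, introns included, which lowers its per-length level. That used for Mt2 was 588 bases. The order of Mt1 and Mt2 on this scale depends on these lengths, and nothing is read from it. Before division by length, Mt1 stood above Mt2 in every library. The transcripts of Mt1 and Mt2 share no stretch of more than 20 bases, and no 50-base stretch of either occurs in another annotated transcript. The other 2 genes of the cluster were not expressed in these livers at a level that could be tested. Mt3, the metallothionein best known from brain, stayed below the test minimum, and Mt4, known from stratified epithelia, was listed at 0.

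**Figure D2:**
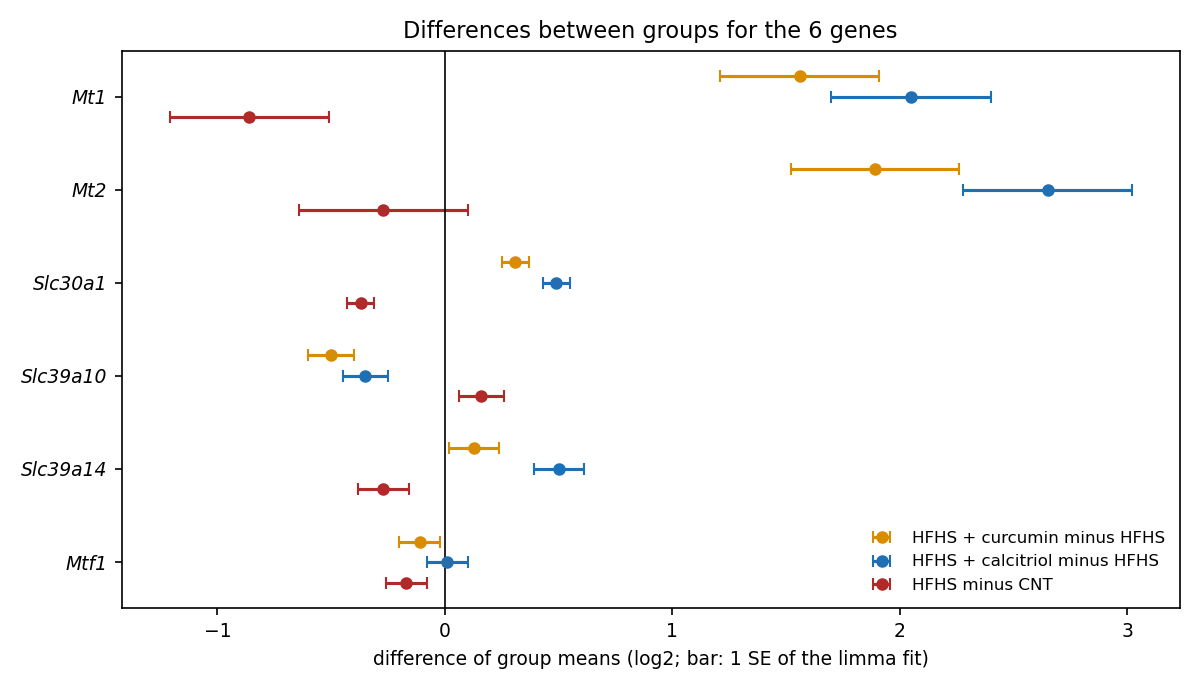
Difference of group means (x axis, log2) for each of the 6 genes (y axis), for curcumin minus HFHS, calcitriol minus HFHS and HFHS minus CNT, with bars of 1 SE of the limma fit. Mt1 and Mt2 carry differences of 1.56 to 2.65 in the treated livers, while those of the 4 other genes lie between -0.50 and 0.50.

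Of the 6 genes, 4 passed an adjusted p of 0.05 in calcitriol against HFHS (Mt1, Mt2, Slc30a1 and Slc39a14, all higher), where 2.21% of all tested genes passed and 0.973% passed as higher. In curcumin against HFHS 0 of 6 passed (0.301% of all genes; 38 genes passed and 3123 had an unadjusted p under 0.05 in limma). In HFHS against CNT 1 of 6, Slc30a1, passed, lower (11.9% of all genes, 5.36% as lower). Against CNT, 1 of 6, Mt2, passed as higher with curcumin (3.51% of all genes, 1.6% as higher) and with calcitriol (4.04%, 1.77% as higher). Libraries did not overlap for 4 of 6 genes in curcumin against HFHS (23.6% of all genes), 5 of 6 in calcitriol against HFHS (24.4%), 3 of 6 in HFHS against CNT (26.9%), 3 of 6 in curcumin against CNT (25.6%) and 2 of 6 in calcitriol against CNT (32.3%). The choice of the genes used the same libraries, so nothing is read from these counts.

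The groups also stood apart in the balance between the metallothioneins. Mt2 minus Mt1 within a library was -0.54, -0.71 and -0.64 with curcumin, -0.41, -0.43 and -0.21 with calcitriol, -0.77, -1.09 and -1.01 in HFHS, and -1.37, -1.46 and -1.81 in CNT (log2). None of the 4 groups overlapped another, and the means were -0.63 ± 0.09 with curcumin, -0.35 ± 0.12 with calcitriol, -0.95 ± 0.17 in HFHS and -1.54 ± 0.23 in CNT (SD, n = 3). The level, taken as the mean of Mt1 and Mt2 in a library, was 12.41, 11.89 and 11.69 with curcumin, 11.96, 12.48 and 13.42 with calcitriol, 10.55, 10.12 and 10.15 in HFHS, and 10.50, 10.58 and 11.43 in CNT. CNT replicate 3 had the highest level among the 6 untreated libraries and the lowest Mt2 relative to Mt1 of all 12. HFHS and CNT overlapped in level and not in balance. The balance was looked at after the values had been seen, and with 3 libraries against 3 an exact permutation test cannot go below 0.10, so no test is given.

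**Figure D3:**
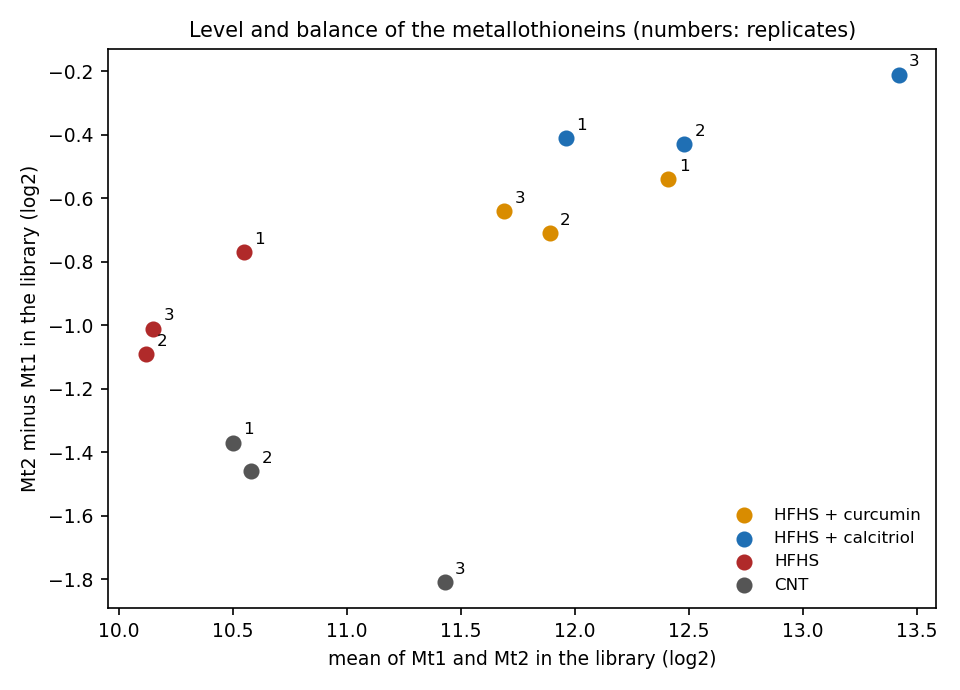
Mean of Mt1 and Mt2 in each library (x axis, log2) against Mt2 minus Mt1 in the same library (y axis, log2), with replicate numbers beside the points. The treated libraries lie at the upper right, HFHS at the left between -1.09 and -0.77, and the CNT libraries lowest, between -1.81 and -1.37.

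Slc30a1, the plasma membrane zinc exporter gene and a known MTF1 target, stood lowest in untreated HFHS livers. Slc30a1 (ENSMUSG00000037434, chr1:191906767-191913247, plus strand) stood at 9.77, 9.67 and 9.66 with curcumin, 9.80, 9.87 and 9.98 with calcitriol, 9.39, 9.39 and 9.40 in HFHS, and 9.78, 9.78 and 9.71 in CNT. The 3 HFHS libraries were nearly identical and lay below all 9 others. The calcitriol libraries lay above CNT, and curcumin and CNT overlapped. Against HFHS, Slc30a1 was 0.31 ± 0.06 higher with curcumin (1.24-fold) and 0.49 ± 0.06 higher with calcitriol (1.41-fold). The HFHS minus CNT difference was -0.37 ± 0.06. Without HFHS replicates 1 and 3 the difference was 0.31 for curcumin minus HFHS, 0.50 for calcitriol minus HFHS and -0.37 for HFHS minus CNT. Slc30a1 overlaps an antisense gene, 1700034H15Rik, with a mean log2 level of 1.54.

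Slc39a10, the importer gene that MTF1 is known to repress, stood lower in the treated livers. Slc39a10 (ENSMUSG00000025986, chr1:46807544-46892852, minus strand) stood at 5.60, 5.66 and 5.52 with curcumin, 5.78, 5.59 and 5.86 with calcitriol, 6.12, 6.10 and 6.05 in HFHS, and 6.14, 5.87 and 5.79 in CNT. Both treated groups lay below the HFHS libraries, and CNT spanned the range from calcitriol to HFHS. Against HFHS, Slc39a10 was lower by 0.50 ± 0.10 with curcumin and by 0.35 ± 0.10 with calcitriol (differences of -0.50 and -0.35, 0.708-fold and 0.786-fold). The HFHS minus CNT difference was 0.16 ± 0.10, with overlap. Without HFHS replicates 1 and 3 the difference was -0.51 for curcumin minus HFHS, -0.36 for calcitriol minus HFHS and 0.17 for HFHS minus CNT. Per exon length this was the least abundant of the 6 genes, and its differences may be understated. It overlaps a non-coding gene on the same strand, Gm28151, with a mean log2 level of 2.53.

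Slc39a14, the importer gene that interleukin-6 induces in liver, differed from HFHS mainly in the calcitriol libraries. Slc39a14 (ENSMUSG00000022094, chr14:70303469-70351425, minus strand) stood at 12.14, 12.08 and 12.25 with curcumin, 12.35, 12.56 and 12.69 with calcitriol, 11.96, 12.21 and 11.91 in HFHS, and 12.22, 12.38 and 12.28 in CNT. Calcitriol libraries lay above all HFHS libraries, and curcumin overlapped HFHS through HFHS replicate 2. The difference from HFHS was 0.13 ± 0.11 with curcumin and 0.50 ± 0.11 with calcitriol (1.42-fold), and the values were -0.05 with curcumin and 0.33 with calcitriol without HFHS replicates 1 and 3. HFHS minus CNT was -0.27 ± 0.11, and -0.09 without those libraries.

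Mtf1, the gene of the zinc sensor itself, differed little. Mtf1 (ENSMUSG00000028890, chr4:124802104-124849800, plus strand) stood at 8.0, 7.98 and 8.16 with curcumin, 8.14, 8.05 and 8.32 with calcitriol, 8.09, 8.29 and 8.09 in HFHS, and 8.29, 8.35 and 8.36 in CNT. The treated and HFHS libraries overlapped, and the curcumin libraries lay below those of CNT. The differences from HFHS were -0.11 ± 0.09 with curcumin (95% confidence interval -0.30 to 0.07) and 0.01 ± 0.09 with calcitriol (-0.17 to 0.20), and they were -0.25 and -0.12 without HFHS replicates 1 and 3. Against CNT they were -0.28 ± 0.09 with curcumin and -0.16 ± 0.09 with calcitriol. Mtf1 overlaps 1110065P20Rik on the other strand, which had a mean level of 7.05, and without a record of strand in the counting the reads of the pair cannot be told apart.

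Ordered by mean level, calcitriol stood first for Mt1, Mt2, Slc30a1 and Slc39a14 and HFHS last for all 4. For Mt1 and Mt2 the order was calcitriol, curcumin, CNT, HFHS. Calcitriol and curcumin overlapped for both genes, curcumin and CNT overlapped for Mt1 and not for Mt2, and CNT and HFHS overlapped for Mt2 and not for Mt1. For Slc30a1 and Slc39a14 the order was calcitriol, CNT, curcumin, HFHS. All neighbours overlapped for Slc39a14, and CNT and curcumin alone for Slc30a1. For Slc39a10 the order was HFHS, CNT, calcitriol, curcumin, and all neighbours overlapped. For Mtf1 it was CNT, calcitriol, HFHS, curcumin, and all neighbours overlapped. On the per-length scale, ranked among 12605 genes, Slc39a14 stood at 1193 with curcumin, 945 with calcitriol, 1210 in HFHS and 1137 in CNT. Slc30a1 ranked 2775 with curcumin, 2442 with calcitriol, 3217 in HFHS and 2712 in CNT, Mtf1 between 7074 and 7677, and Slc39a10 between 10378 and 10847. The metallothioneins thus ranked above all 4 other genes in every group.

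Curcumin and calcitriol were also compared directly at the same times. In limma 0 of 12637 genes passed in this comparison (0.0%), with 1873 at an unadjusted p under 0.05 and a lowest adjusted p of 0.142. These treated libraries also served in choosing the 6 genes, whose differences are again given without p-values. Curcumin minus calcitriol was -0.49 for Mt1 (95% confidence interval -1.26 to 0.29) and -0.76 for Mt2 (-1.57 to 0.05). It was -0.18 for Slc30a1 (-0.32 to -0.05) and -0.38 for Slc39a14 (-0.62 to -0.13), and in both the libraries did not overlap (2 of 6 genes, against 28.7% of all). It was -0.15 for Slc39a10 (-0.38 to 0.08) and -0.12 for Mtf1 (-0.31 to 0.06). The compounds' doses are not given in the sources used here.

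The other zinc transporter genes did not pass the test in treated livers against HFHS. Of all 12637 genes, 38 passed with curcumin (0.301%, 19 higher and 19 lower). With calcitriol 279 passed (2.21%, 123 higher and 156 lower). An unadjusted limma p under 0.05 was found for 3123 genes with curcumin and 2693 with calcitriol. The counts of this list and of those below stand beside these, and 0 passing in a short list says little. The SLC30 family moves zinc out of the cytosol; besides Slc30a1, 9 genes had values and 7 were tested. With curcumin 0 of 7 passed (median difference from HFHS 0.00, against -0.003 over all tested genes), and with calcitriol 0 of 7 (median 0.02, against -0.002). An unadjusted limma p under 0.05 was found for 0 of them with curcumin and 2 with calcitriol. Slc30a10, known as a manganese exporter, had the largest difference with calcitriol, 0.54 ± 0.17 (limma adjusted p = 0.107), standing at 8.26, 8.15 and 8.73 with calcitriol and at 7.87, 8.10 and 7.54 in HFHS. The SLC39 family moves zinc into the cytosol; besides Slc39a10 and Slc39a14, 12 genes had values and 11 were tested. In this family 0 of 11 passed with either treatment, with medians of -0.06 for curcumin and -0.07 for calcitriol and an unadjusted limma p under 0.05 for 1 gene with curcumin and 3 with calcitriol. Slc39a4, the importer of dietary zinc in the intestine, differed from HFHS by -0.45 ± 0.14 with calcitriol (limma adjusted p = 0.102).

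**Figure D4:**
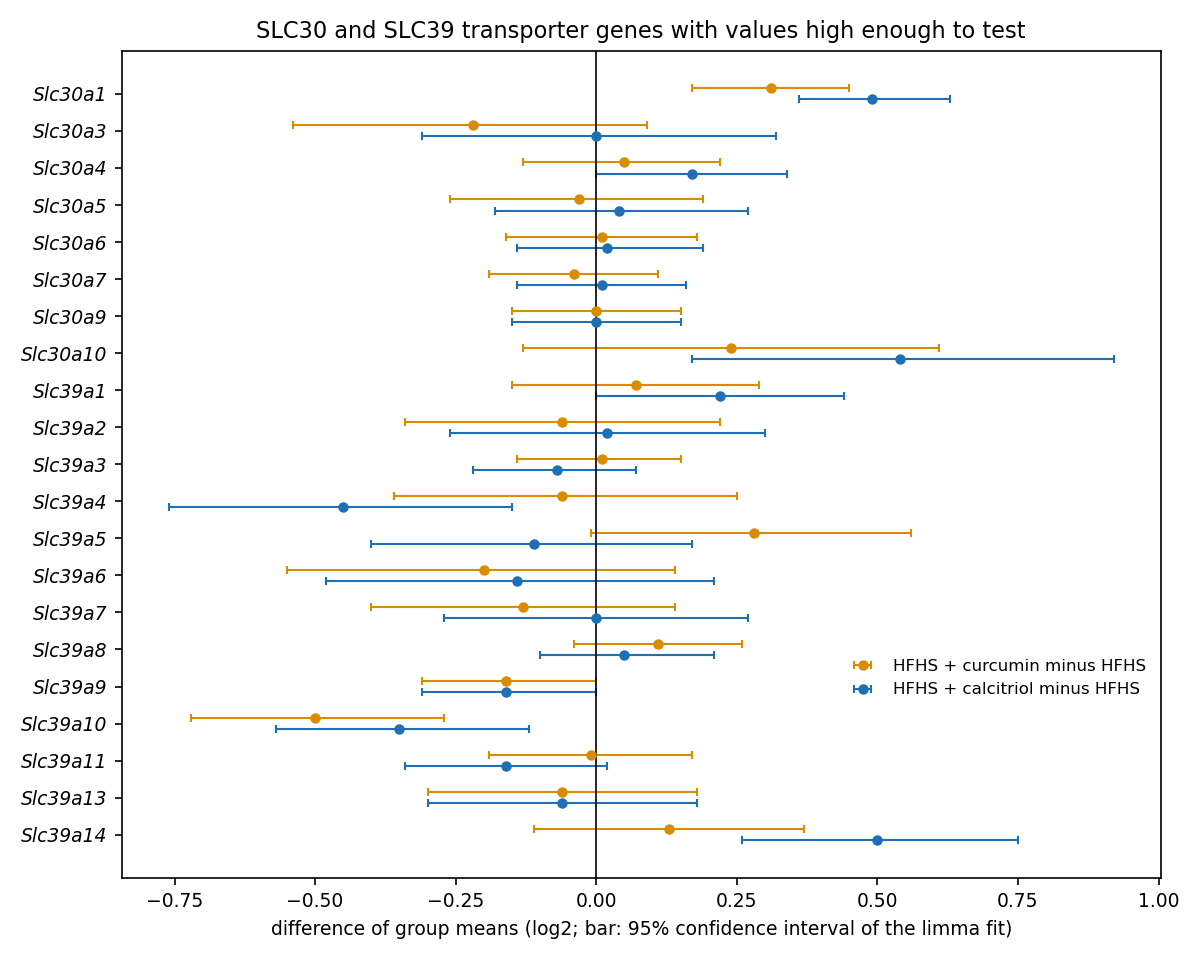
Difference from HFHS (x axis, log2, with 95% confidence intervals of the limma fit) after curcumin and after calcitriol for the tested SLC30 and SLC39 genes (y axis). Slc30a1 lies above 0 and Slc39a10 below 0 with both treatments, and most other family members lie within 0.25 of 0.

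In the comparisons with CNT, Slc39a5 passed for all 3 other groups. Slc39a5, a zinc importer gene of liver, pancreas and intestine, stood at 6.43, 6.61 and 6.35 with curcumin, 6.07, 6.01 and 6.15 with calcitriol, 6.19, 6.45 and 5.94 in HFHS, and 5.65, 5.30 and 5.47 in CNT. All 9 libraries of the 3 groups lay above the CNT libraries. The rise was 0.99 ± 0.13 for curcumin over CNT (limma adjusted p = 0.00269), 0.61 ± 0.13 for calcitriol over CNT (adjusted p = 0.0305) and 0.72 ± 0.13 for HFHS over CNT (adjusted p = 0.0124). These comparisons share the CNT libraries. Slc39a3 rose by 0.25 ± 0.07 in HFHS over CNT (limma adjusted p = 0.0353), a call kept in 6 of 18 alternative fits.

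Of the other genes linked to MTF1 or to metals, few passed the test. Of 5 further genes reported as MTF1 targets, 4 were tested (Selenow, a selenoprotein; Ndrg1; Csrp1; and Gclc, of glutathione synthesis), and 0 passed with curcumin or calcitriol against HFHS. Their medians were -0.21 with curcumin and -0.07 with calcitriol, and 2 of them with curcumin and 1 with calcitriol had an unadjusted limma p under 0.05. All 10 copper handling genes were tested, among them the copper pump gene Atp7b and ceruloplasmin, Cp, and 0 passed in any comparison, with medians of 0.15 for curcumin and -0.03 for calcitriol against HFHS and an unadjusted limma p under 0.05 for 3 genes with curcumin and 1 with calcitriol. Of 12 genes of hepcidin and iron handling, Tfr2, a sensor of transferrin-bound iron, rose by 0.52 ± 0.12 with calcitriol over HFHS (limma adjusted p = 0.0457, kept in 6 of 18 alternative fits), and 0 passed with curcumin.

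None of the tested NRF2, metal stress and heat shock genes passed as higher in treated livers against HFHS. Of 9 tested NRF2 targets and metal stress genes, 0 rose and 2 fell with calcitriol against HFHS. Nqo1, a quinone reductase, fell by 0.63 ± 0.13 on the log2 scale (difference -0.63, limma adjusted p = 0.0372), and Srxn1, which repairs peroxiredoxins, fell by 0.62 ± 0.15 at the edge of the threshold and in 3 of 18 alternative fits. With curcumin 0 of 9 passed. Of 9 tested heat shock genes, 3 fell with calcitriol against HFHS and 1 with curcumin. Hspa1b, the stress-inducible chaperone HSP70, stood at 6.04, 6.24 and 6.17 with curcumin, 5.93, 5.67 and 5.89 with calcitriol, 6.66, 6.85 and 7.06 in HFHS, and 6.46, 6.38 and 6.47 in CNT. It fell by 0.71 ± 0.11 with curcumin (difference -0.71, limma adjusted p = 0.0384) and by 1.03 ± 0.11 with calcitriol (difference -1.03, adjusted p = 0.00225) against HFHS. Hspa1b has a near-identical copy, Hspa1a, which could share its reads, so its value is uncertain. Dnajb1, a co-chaperone, and Hspa8, the constitutive HSP70, differed from HFHS by -0.59 ± 0.09 and -0.39 ± 0.09 with calcitriol (limma adjusted p = 0.018 and 0.0448).

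Glucocorticoid response genes showed no call. All 12 were tested, among them Fkbp5, Tsc22d3, Per1 and Tat, and 0 passed in any comparison. Their median difference from HFHS was -0.09 with curcumin and 0.09 with calcitriol, and 3 of them with curcumin and 2 with calcitriol had an unadjusted limma p under 0.05. Their median Pearson correlation with the metallothionein level over the 12 libraries was -0.05.

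Among single libraries, the metallothionein level followed the acute phase genes, which the liver expresses under interleukin-6. Correlations here are over the same 12 libraries, describe them only, and include differences between groups unless stated. By the highest correlation with the mean of Mt1 and Mt2, the 5 genes outside the members were Asb7 (r = 0.93), Lbp, the lipopolysaccharide-binding protein of the acute phase (0.91), Stat3, the signal transducer of interleukin-6 (0.91), the cytochrome P450 gene Cyp3a13 (0.91) and Chpf2 (0.91). Their Spearman correlations were 0.90, 0.80, 0.92, 0.92 and 0.91, and r was 0.86 to 0.89 for these 5 without HFHS replicate 2 and calcitriol replicate 3, the libraries farthest from the median level. The lowest were Lss (-0.93), Acsl4 (-0.93), Utp14b (-0.92), Commd10 (-0.92) and Sc5d (-0.91). Lss and Sc5d encode enzymes of cholesterol synthesis, and Acsl4 activates arachidonic acid. Of all tested genes, 5% had r above 0.62 and 5% below -0.59. Slc30a1 had r = 0.78, Slc39a10 -0.70, Slc39a14 0.66 and Mtf1 -0.23. The members were chosen by differences between groups that this measure includes, so nothing is read from their place beside these shares.

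With the mean of each group subtracted, the 5 highest were Tnfrsf1a, a receptor of tumour necrosis factor (r = 0.96), Steap4, a metalloreductase (0.95), Hpx, the haem carrier hemopexin (0.95), Saa1, serum amyloid A (0.94), and Litaf (0.94). The lowest were Ppp2r3a (-0.93), Cep85 (-0.93), the transporter gene Abcc3 (-0.92), Zmym5 (-0.91) and Vnn3 (-0.91). Mt1 and Mt2 correlated with each other at 0.95 on this measure. The other members followed less: r was 0.60 for Slc30a1, -0.03 for Slc39a10, 0.34 for Slc39a14 and 0.22 for Mtf1, where 5% of all genes were above 0.67. Their Spearman correlations, in the same order, were 0.32, -0.05, 0.2 and -0.01. Of 20 acute phase and interleukin-6 response genes, 17 had r above 0.67, with a list median of 0.86. Calcitriol replicate 3 and CNT replicate 3 were the libraries farthest from the median on this measure, and r for the 5 highest genes was 0.86 to 0.92 without them. The list of 20 was not taken again without these libraries, so its median may rest on them.

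Saa1 stood at 12.74, 11.34 and 11.14 with curcumin, 12.65, 13.13 and 16.69 with calcitriol, 11.36, 11.43 and 11.13 in HFHS, and 9.86, 10.10 and 13.57 in CNT. Calcitriol replicate 3 and CNT replicate 3 had the highest Saa1 of all 12 libraries and the highest metallothionein level of their groups. The level did not go with Saa1 in all libraries. Curcumin replicates 2 and 3, at 11.34 and 11.14, lay within the Saa1 range of HFHS, 11.13 to 11.43, while their metallothionein levels, 11.89 and 11.69, were above the highest HFHS level, 10.55. Other acute phase genes went either way in these libraries, but more lay above the whole HFHS range than below it. Of the acute phase list, Hp, Fga, Fgb, Fgg, Itih3, Orm3, Il6ra and Stat3 were above all HFHS libraries in both. Only Saa2, Lcn2 and Orm2 were below all of them in both, Lcn2 narrowly, and the remaining genes of the list overlapped HFHS. Lbp and Stat3, named above by their correlation with the metallothionein level, were above HFHS. Lbp stood at 11.44 and 11.38 in curcumin replicates 2 and 3, against 11.04 to 11.06 in HFHS, and Stat3 at 11.34 and 11.37, against at most 11.29 in HFHS. Saa2 and Lcn2 were below HFHS. Saa2 stood at 10.13 and 9.99, against at least 10.20 in HFHS, and Lcn2 at 10.28 and 10.21, against at least 10.29. Calcitriol replicates 1 and 2 had metallothionein levels of 11.96 and 12.48 at Saa1 levels of 12.65 and 13.13, while CNT replicate 3 had a level of 11.43 at the higher Saa1 level of 13.57.

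**Figure D5:**
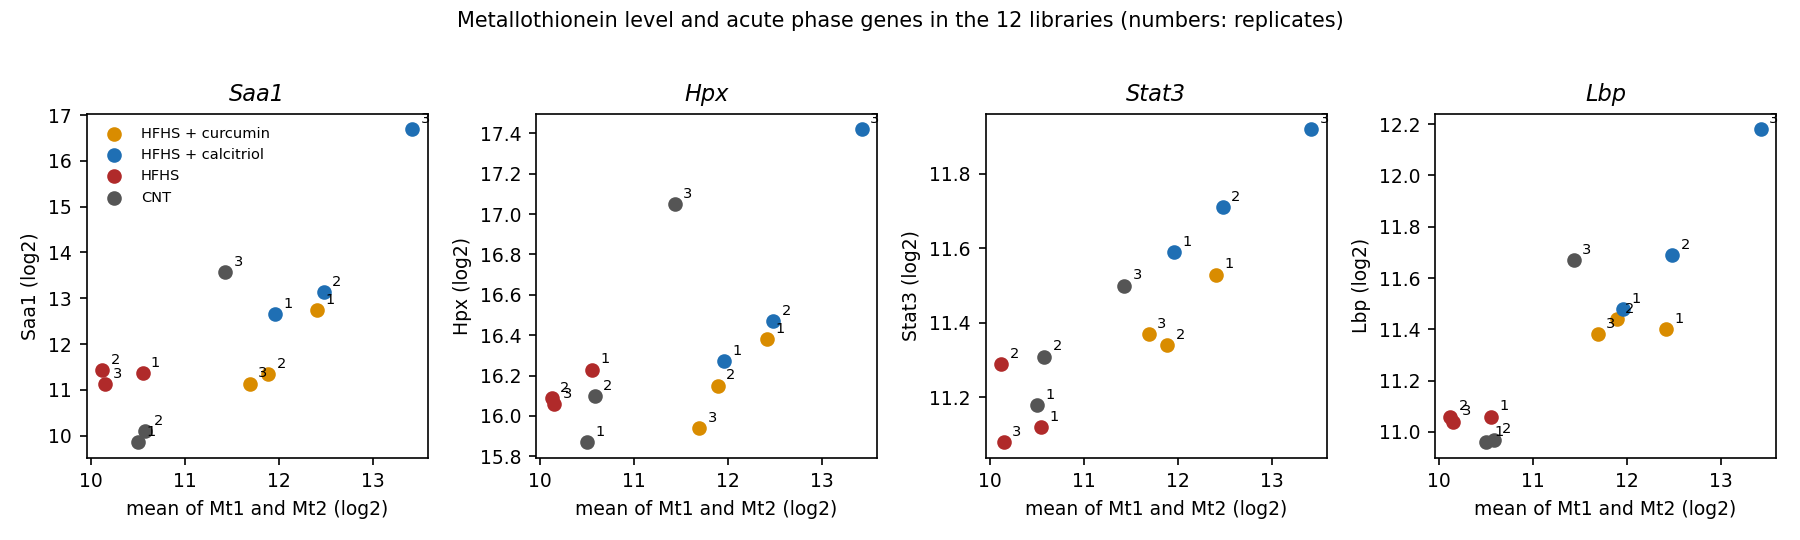
Mean of Mt1 and Mt2 in each of the 12 libraries (x axis, log2) against the level of Saa1, Hpx, Stat3 and Lbp (y axes, log2, a scale each), with replicate numbers. Curcumin replicates 2 and 3 lie at the Saa1 level of HFHS with metallothionein levels of 11.89 and 11.69, but above all HFHS libraries for Lbp (11.44 and 11.38) and Stat3 (11.34 and 11.37), and CNT replicate 3 lies high for Saa1, at 13.57, with a metallothionein level of 11.43, below all treated libraries.

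As a list, the 20 acute phase genes had a median difference from HFHS of 0.23 with curcumin and 0.80 with calcitriol, and HFHS differed from CNT by a median of -0.39, beside medians near 0 over all genes. With curcumin 16 of 20 differences from HFHS were above 0 and 0 of 20 passed. An unadjusted limma p under 0.05 was found for 2, against 3123 of all 12637 genes. With calcitriol 12 of 20 had such an unadjusted p, against 2693 of all 12637 genes. Past the threshold 2 of 20 rose, where 0.973% of all genes did. Stat3 rose by 0.58 ± 0.11 (limma adjusted p = 0.0311). Itih4, a plasma protein of the acute phase, rose by 1.12 ± 0.26 (adjusted p = 0.0495, kept in 4 of 18 alternative fits). In HFHS against CNT 1 of 20 passed, Cebpd, a transcription factor of the acute phase, which was 0.53 ± 0.14 higher (limma adjusted p = 0.0345), against the direction of the list median. With calcitriol replicate 3 and CNT replicate 3 both left out, a setting chosen after seeing the data, the metallothionein level was 1.72 above HFHS with curcumin and 1.95 above HFHS with calcitriol, against 1.72 and 2.35 with all libraries. HFHS minus CNT was then -0.27, against -0.56. The part of the acute phase response in the metallothionein differences was not tested.

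Markers of other cell types moved with the groups to a varying degree. The summed level of the 5 erythroid markers, all present, was 13.39 to 13.52 with curcumin, 13.44 to 13.73 with calcitriol, 12.15 to 13.04 in HFHS and 12.00 to 13.11 in CNT. The treated libraries lay above all others, as for Mt2. The erythroid genes' median correlation with the metallothionein level was 0.75 over the 12 libraries and 0.14 with group means subtracted. The 7 Kupffer cell and macrophage markers summed to 12.52 to 12.80 with curcumin, 12.82 to 13.15 with calcitriol, 12.37 to 12.91 in HFHS and 12.15 to 12.43 in CNT. Such sums follow the most abundant markers. Against HFHS, 4 of these 7 genes differed upwards and 3 downwards with calcitriol, and 2 upwards and 5 downwards with curcumin. The 5 neutrophil markers summed to 6.15 to 6.60 with curcumin, 6.55 to 7.62 with calcitriol, 6.32 to 7.12 in HFHS and 5.91 to 6.48 in CNT. The 5 adipocyte markers summed to 4.65 to 4.85 with curcumin, 4.54 to 5.20 with calcitriol, 4.50 to 9.26 in HFHS and 4.55 to 4.56 in CNT. The 6 stellate cell and fibroblast markers summed to 12.68 to 12.76 with curcumin, 12.55 to 12.65 with calcitriol, 12.56 to 13.51 in HFHS and 12.25 to 12.54 in CNT. The 5 cholangiocyte markers summed to 10.13 to 10.27 with curcumin, 9.48 to 10.10 with calcitriol, 10.14 to 11.78 in HFHS and 9.95 to 10.53 in CNT. The 5 endothelial markers summed to 11.07 to 11.28 with curcumin, 11.71 to 11.81 with calcitriol, 11.15 to 11.70 in HFHS and 11.01 to 11.64 in CNT. The 6 hepatocyte markers summed to 20.74 to 21.08 with curcumin, 20.11 to 20.76 with calcitriol, 20.51 to 20.83 in HFHS and 20.72 to 21.03 in CNT. The highest stellate, cholangiocyte and adipocyte sums of all libraries were thus in HFHS. Of the single markers, Alas2, the haem synthesis enzyme of erythroid cells, rose by 0.57 ± 0.13 with calcitriol over HFHS (limma adjusted p = 0.0415), and Clec4g, of liver sinusoidal endothelium, by 0.63 ± 0.13 (adjusted p = 0.038). These calls were kept in 5 of 18 alternative fits for Alas2 and 7 of 18 for Clec4g. In HFHS over CNT the collagen gene Col3a1 rose by 1.89 ± 0.51 (limma adjusted p = 0.0442) and the macrophage gene Gpnmb by 2.64 ± 0.71 (adjusted p = 0.0427). Each of these calls was kept in 3 of 18 alternative fits. In all, 3 of 7 macrophage and 3 of 6 stellate markers passed as higher, where 11.9% of all genes passed. The others were kept in more fits. Cd68 rose by 0.62 ± 0.13 (limma adjusted p = 0.0188, 15 of 18) and Trem2 by 1.08 ± 0.24 (adjusted p = 0.0228, 13 of 18). Lrat rose by 0.62 ± 0.13 (adjusted p = 0.0191, 13 of 18) and Dcn by 0.53 ± 0.14 (adjusted p = 0.0353, 6 of 18). Col3a1 stood at 11.58, 9.21 and 11.34 in HFHS and at most at 9.03 in CNT. Gpnmb stood at 8.62, 4.89 and 7.15 in HFHS and at most at 4.31 in CNT. The urea cycle gene Cps1 differed by -0.84 ± 0.18 between HFHS and CNT (limma adjusted p = 0.0189, kept in 12 of 18 alternative fits). The part of these cells in the metallothionein values was not tested.

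No tested neighbour of the metallothionein genes passed in treated livers against HFHS. Mt2 ends 5513 bases before Mt1 starts, and 14 other annotated genes lie within 250 kb of the pair, of which 7 were tested. Their differences from HFHS ranged from -0.25 to 0.81 with curcumin and from -0.25 to 0.34 with calcitriol, and 0 of 7 passed in either comparison. The largest with calcitriol were those of Gm15889, a long non-coding RNA gene (0.34 ± 0.21), Bbs2 (0.28 ± 0.10) and Nup93, a nuclear pore gene (-0.25 ± 0.16). Gm15889 was also the gene at 0.81 ± 0.21 with curcumin (limma adjusted p = 0.0766).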

How the data were processed

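RNA sequencing of 12 whole-liver libraries in 4 groups of 3 was used, with groups taken from the sample titles. The authors deposited 1 table of log2 values per library; the submitters' processing notes name STAR 2.4.0d, DESeq2 1.8.1 and the GRCm38 build, with no role for any, and the transformation is not given in the sources used here. No counts were analysed, so depth is unknown and the precision rests on the spread between libraries. Of 45792 listed genes, 23411 stood at 0 throughout and were dropped; GENCODE M21 gave the symbols.

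Genes with a value of at least 3.32 (log2 of 10) in 3 or more libraries, 12637 in all, were fitted with limma 3.58.1 in R 4.3.3: 4 group means, empirical Bayes (trend, robust). Tests were two-sided, and p-values were adjusted over all of these genes by Benjamini-Hochberg, with a threshold of 0.05. The fit was tested on simulated data. Alternatives were no filter, quantile normalization, plain moderation, only the groups compared, a block by replicate number, leaving out each library or HFHS replicates 1 and 3, and leaving out the calcitriol and CNT libraries of highest Saa1. The last was added after seeing the data. Same-numbered libraries of different groups did not all deviate together (18 pairs, median correlation 0.105, range -0.383 to 0.372; the median of the 36 differently numbered pairs was -0.047).

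The 6 genes, the lists and the rules for naming genes were chosen with earlier results of these data known. All 6 genes are named; from each list, at most 4 genes past the threshold per comparison could be named, and not all are, chiefly those of comparisons with CNT and of the marker lists; by correlation, the 5 highest and 5 lowest; and the tested genes near Mt1 and Mt2. Slc30a10, Slc39a4 and the balance of Mt2 and Mt1 were picked after their values were seen. Summed marker levels add the values on the linear scale. Promoter sequences are RefSeq's (GRCm38.p6); 5 of the 6 genes had one.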

Additional observations from a re-analysis of the deposited data

How the results depend on the processing

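The metallothionein level differences kept their direction in all 96 alternative values. Leaving out 1 library at a time, they ranged from 1.95 to 2.68 for calcitriol minus HFHS, 1.52 to 1.88 for curcumin minus HFHS, -0.73 to -0.27 for HFHS minus CNT, 1.38 to 2.12 for calcitriol minus CNT, 0.96 to 1.46 for curcumin minus CNT and -0.96 to -0.22 for curcumin minus calcitriol. Whether single genes passed depended more on the setting. The choice of the 6 genes used the same libraries, so their counts here describe the settings and lend the genes no support. Of 19 alternatives in calcitriol against HFHS, Mt1 passed in 12, Mt2 in 16, Slc30a1 in 16 and Slc39a14 in 7. In curcumin against HFHS, where none of the 6 genes passed in the main analysis, Mt1 passed in 3, Mt2 in 5, Slc30a1 in 4 and Slc39a10 in 4. Slc30a1 in HFHS against CNT passed in 17, Mt2 in calcitriol against CNT in 19 and Mt2 in curcumin against CNT in 6. The number of genes passing over the whole table moved widely. Without HFHS replicates 1 and 3 it was 4 for calcitriol against HFHS (279 in the main analysis), 0 for curcumin against HFHS (38), 68 for HFHS against CNT (1505), 1200 for calcitriol against CNT (511), 818 for curcumin against CNT (443) and 10 for curcumin against calcitriol (0). With only the compared groups in the fit, it was 0 for calcitriol against HFHS, 0 for curcumin against HFHS, 13 for HFHS against CNT and 214 for curcumin against calcitriol. Without the calcitriol and CNT libraries of highest Saa1 it was 31 for calcitriol against HFHS, 145 for curcumin against HFHS, 190 for calcitriol against CNT and 900 for curcumin against CNT. Quantile normalization gave 430 for calcitriol and 168 for curcumin against HFHS, and no filter gave 74 for curcumin against HFHS and 328 for calcitriol against CNT. The replicate block, with numbers that are not stated to pair the samples, gave 242 for curcumin against HFHS. Leaving out 1 library at a time gave 4 to 2189 for calcitriol against HFHS, 0 to 3205 for curcumin against HFHS, 143 to 3712 for HFHS against CNT, 73 to 1142 for calcitriol against CNT, 94 to 948 for curcumin against CNT and 0 to 0 for curcumin against calcitriol. The cause of these shifts was not tested. Where HFHS replicates 1 and 3 are out, the remaining one is taken to vary as the other groups do.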

Other observations

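In the SLC39 family, Slc39a1, a zinc importer gene expressed in many tissues, followed the metallothionein level among libraries of the same group (r = 0.92 over 12 libraries with group means subtracted, and 0.79 without subtraction), and Slc39a4 ran against it (-0.82 and -0.77). Both were picked after their values were seen, and neither passed the test in treated livers against HFHS. Slc39a1 stood at 9.59, 9.50 and 9.39 with curcumin, 9.50, 9.64 and 9.77 with calcitriol, 9.46, 9.43 and 9.36 in HFHS, and 9.36, 9.36 and 9.70 in CNT.

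Of the genes most and least like the metallothioneins over the 12 libraries, Cyp3a13 rose by 1.03 ± 0.16 with calcitriol over HFHS (limma adjusted p = 0.018), and Lss and Sc5d fell by 0.81 ± 0.12 and 0.65 ± 0.12 on the log2 scale (adjusted p = 0.0127 and 0.0297). They were selected by their correlation in the same libraries, so these values are not independent of it.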
